A study of Mus musculus with 16 samples.

Results

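The genes described here are 8 genes of Schwann cells and of the myelin they make, namely Pmp22, Mbp, Mag, Prx, Mal, Cnp, Egr2 and Sox10. They were taken by symbol from a table of 24982 gene entries, each symbol matched, and all 8 were among the 15507 genes tested. RNA was sequenced from lumbar dorsal root ganglia, the clusters of sensory neuron cell bodies beside the spinal cord, of C57BL/6 mice aged 10 to 12 weeks. Complete Freund's adjuvant (CFA), which provokes a lasting joint inflammation, or saline as the vehicle had been injected into the ankle joint 14 days earlier. The 4 groups were TrkA/C knock-in mice given CFA (KI CFA), knock-in mice given saline (KI saline), wild-type mice given CFA (WT CFA) and wild-type mice given saline (WT saline), with 4 libraries in each. Every library pooled 6 ganglia of the injected side from 2 mice, so a library is a pool and not a single animal, and the labels do not describe the knock-in construct.

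In peripheral nerve and ganglia, Schwann cells wrap the larger axons in myelin, a stack of cell membrane held together by a small set of abundant proteins. The transcription factor Sox10 is needed throughout the Schwann cell lineage and is also made by satellite glia, the cells that surround the neuron bodies. Egr2, also called Krox20, is the transcription factor that starts and keeps up the myelin programme together with Sox10, and the remaining genes encode proteins of the sheath.

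Totals ran from 22742209 to 40910947 counts per library. Every pair of libraries correlated at 0.963 or more in log2 CPM over the 9692 genes that averaged 10 CPM or more. Ntrk3, which encodes TrkC, lay between 99.1 and 138 CPM in the 8 KI libraries, against 29.3 to 61.4 CPM in the 8 WT libraries. For WT CFA replicate 1 the title says WT while the genotype field says knock-in. It was placed by its title, and its Ntrk3 level was 48.4 CPM. Skeletal muscle transcripts stood apart in KI saline replicates 1 and 4, where 11 muscle markers summed to 925 and 876 CPM, against 124 CPM or less in the other libraries.

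The label of the 8 genes was checked against markers of other cells that could supply the same transcripts. Several of the 8, among them Mbp, Mag, Cnp and Mal, are also made by oligodendrocytes, the myelinating cells of the central nervous system. Of 12 genes of central glia, listed as oligodendrocyte markers, Mog was at 0 in 13 of 16 libraries and at most 0.249 CPM. Olig2 and Opalin were each at 0 in 14 libraries. The highest of the 12 by median were Aqp4 at up to 14.9 CPM, Myrf at 5.95 to 9.35 and Sox8 at 3.62 to 8.87 CPM. Which cells made these transcripts was not tested. Mobp, a myelin gene of oligodendrocytes, was at 7.14 CPM (188 counts) in WT saline replicate 4, against 0 to 0.936 CPM in the other 15 libraries. That library was also the highest for Mal and Cnp, and it was among the 3 highest for 7 of the 8 genes. Comparisons with WT saline are given below with and without it for Mal and Cnp. For Mbp in both comparisons, and for Mag after saline, the range over leaving out each library is given. The sum of the 12 genes was 21.2 to 30.0 CPM in KI CFA, 25.4 to 31.3 in KI saline, 23.9 to 30.0 in WT CFA and 28.9 to 35.3 in WT saline. Aqp4, Myrf and Sox8 made up most of this sum in every library, so it says little about oligodendrocytes. Prx, a sheath gene of Schwann cells, was at 163 CPM or more in every library, so its levels and those of Mog, Olig2 and Opalin lay far apart.

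Scaled for length, as CPM per kilobase of annotated exon, the 8 genes covered a wide span. Pmp22 was the highest, with a median over the 16 libraries of 539 CPM per kilobase, followed by Mbp at 113. Cnp, Mal, Prx and Sox10 came next at 65.2, 49.3, 44.8 and 35.1 CPM per kilobase. Mag and Egr2 were the lowest, at 7.06 and 3.51 CPM per kilobase. Deposited counts per library ran from 28337 to 48921 for Pmp22 but only from 209 to 527 for Egr2 and from 320 to 768 for Mag, so Egr2 and Mag have the largest counting error.

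Pmp22 encodes a membrane-spanning protein of compact myelin whose gene dosage is known from inherited neuropathy (Entrez 18858, chromosome 11, 63128982 to 63159547, mm10). By replicate it had 1217, 1119.5, 1272 and 1136 CPM in KI CFA, 1028, 1187, 1244 and 1286 in KI saline, 1117, 1089, 1009.8 and 1221 in WT CFA, and 1103, 1038, 1334 and 1291 in WT saline. No group was set apart, and the highest library exceeded the lowest by 1.32-fold, the narrowest span of the 8 genes. Mbp encodes the protein that seals the cytoplasmic faces of the membrane stack (Entrez 17196, chromosome 18, 82475091 to 82585637). Mbp stood at 1206, 873, 897 and 803 CPM in KI CFA, 742, 946, 969.7 and 993 in KI saline, 954, 817, 645 and 925 in WT CFA, and 863, 909.9, 1157 and 1138 in WT saline. Its lowest library was WT CFA replicate 3 and its highest KI CFA replicate 1, a 1.87-fold span, and libraries of all 4 groups interleaved. The means were 945 ± 179 CPM in KI CFA, 912 ± 115 in KI saline, 835 ± 139.9 in WT CFA and 1017 ± 152 in WT saline (SD, n = 4 each).

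Mag encodes an adhesion molecule on the membrane that faces the axon (Entrez 17136, chromosome 7, 30899175 to 30914922). Its values were 22.3, 17.5, 16.0 and 16.4 CPM in KI CFA, 15.7, 20.4, 21.5 and 20.4 in KI saline, 19.9, 15.6, 11.4 and 17.0 in WT CFA, and 14.6, 15.4, 19.9 and 20.4 in WT saline. Here too WT CFA replicate 3 was the lowest and KI CFA replicate 1 the highest, with a 1.95-fold span. Prx encodes periaxin, a scaffold in the outer part of the sheath that links the Schwann cell to its basal lamina (Entrez 19153, chromosome 7, 27499305 to 27520041). Prx was measured at 299, 255, 241 and 216 CPM in KI CFA, 185, 245, 265 and 289 in KI saline, 258, 229, 163 and 261 in WT CFA, and 225, 231, 310.2 and 294 in WT saline. It spanned 1.90-fold, with WT CFA replicate 3 and KI saline replicate 1 lowest and WT saline replicate 3 highest.

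Mal encodes a small membrane protein of lipid-rich domains (Entrez 17153, chromosome 2, 127633226 to 127656695), and Cnp an enzyme of the non-compacted myelin (Entrez 12799, chromosome 11, 100574909 to 100591875). Mal averaged 139 ± 15.4 CPM in KI CFA, 138 ± 14.4 in KI saline, 135 ± 11.4 in WT CFA and 144 ± 24.2 in WT saline (SD, n = 4 each). Cnp averaged 152 ± 13.1 CPM in KI CFA, 152 ± 8.31 in KI saline, 153 ± 18.4 in WT CFA and 164 ± 20.9 in WT saline (SD, n = 4 each). Both had narrow spans, 1.45-fold and 1.40-fold between highest and lowest library, and in both WT saline replicate 4 was the highest.

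Egr2 lies on chromosome 10 (Entrez 13654, 67534469 to 67542188), and its levels were 14.6, 15.2, 10.5 and 10.2 CPM in KI CFA, 7.57, 12.6, 11.3 and 12.9 in KI saline, 10.5, 11.0, 9.19 and 11.0 in WT CFA, and 7.39, 12.1, 12.8 and 14.7 in WT saline. It had the widest span, 2.05-fold, and its low values were a single library in each saline group, KI saline replicate 1 and WT saline replicate 1. Sox10 (Entrez 20665, chromosome 15, 79154913 to 79164490) was present at 118, 93.9, 84.3 and 87.1 CPM in KI CFA, 99.9, 101, 120.3 and 88.9 in KI saline, 118, 97.4, 83.4 and 113 in WT CFA, and 96.1, 91.0, 108 and 97.8 in WT saline. Its highest library was KI saline replicate 3, and WT CFA replicate 3, the lowest, differed from it by 1.44-fold. For each of the 8 genes, no pair of the 4 groups was free of overlap. How often groups of 4 libraries overlap over all genes was not counted.

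**Figure D1:**
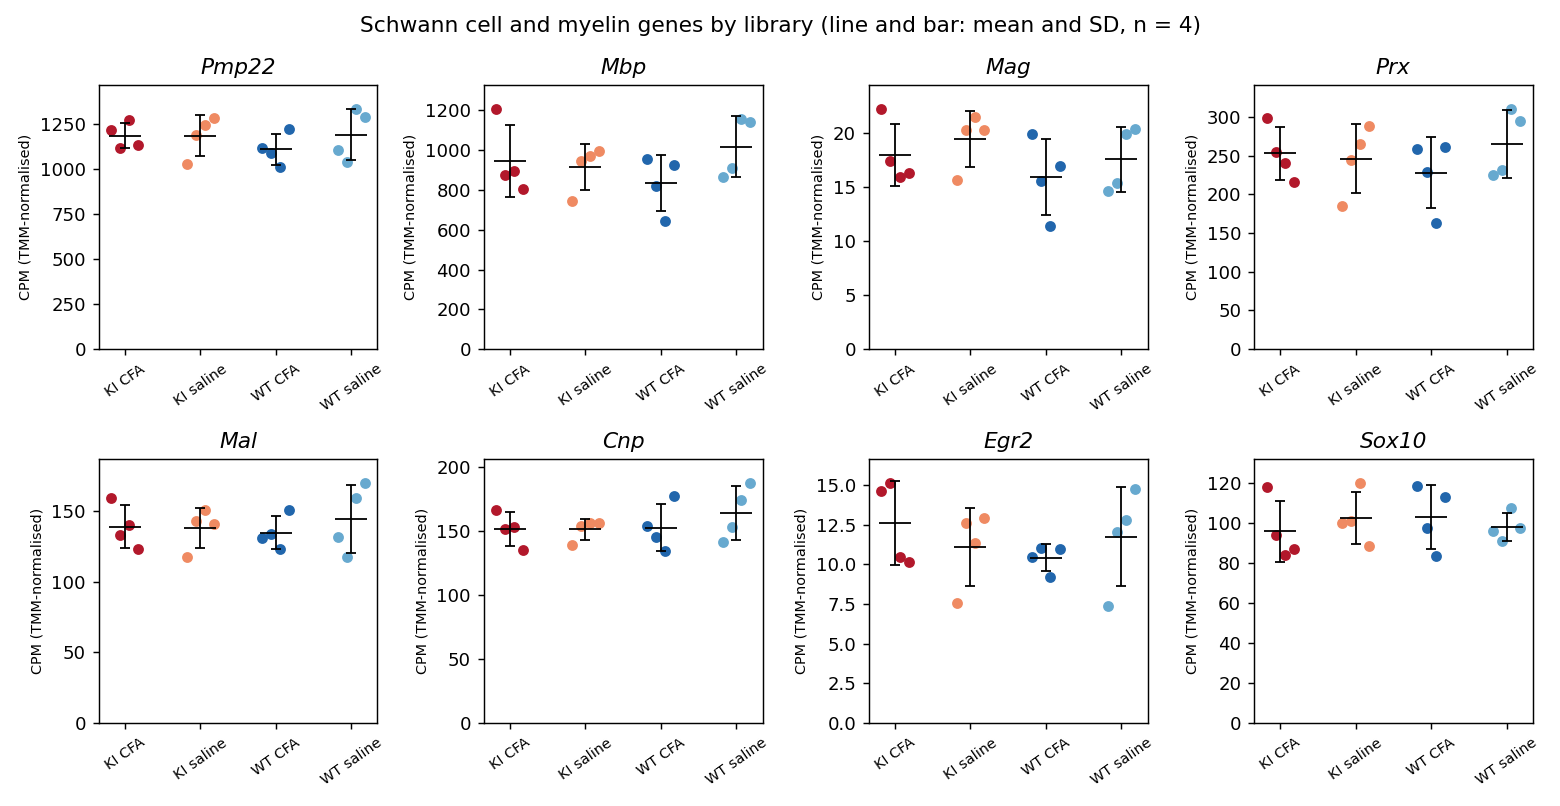
TMM-normalised CPM (y axis, from 0) of each gene in the 16 libraries, grouped on the x axis as KI CFA, KI saline, WT CFA and WT saline, where points are libraries and the line and bar are the mean and SD of 4 libraries. In all 8 panels the points of the 4 groups overlap, as for Mbp, with 803 to 1206 CPM in KI CFA and 863 to 1157 CPM in WT saline.

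Stretches of DNA before the gene start are shown for the members whose upstream window lay outside the annotated gene, because the 8 genes varied together from library to library and Sox10 and Egr2 are known regulators of the sheath genes. The RefSeq table (build GRCm38.p6) held windows for 6 of the 8 genes and none for Mbp or Sox10. The 250 bases before the start were searched on both strands for ACAAAG and ACAATG, cores bound by the SOX family, and for GTGGGCG, a core bound by the EGR family. Each sequence reads 5′ to 3′ on the gene's strand, and capitals mark a motif match.
Mal, chr2:127656696-127656945, minus strand: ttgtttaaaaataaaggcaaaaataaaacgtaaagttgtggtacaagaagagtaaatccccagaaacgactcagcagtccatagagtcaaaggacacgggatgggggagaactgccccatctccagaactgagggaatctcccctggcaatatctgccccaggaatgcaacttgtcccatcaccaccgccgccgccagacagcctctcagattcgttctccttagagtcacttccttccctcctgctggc
Mag, chr7:30914923-30915172, minus strand: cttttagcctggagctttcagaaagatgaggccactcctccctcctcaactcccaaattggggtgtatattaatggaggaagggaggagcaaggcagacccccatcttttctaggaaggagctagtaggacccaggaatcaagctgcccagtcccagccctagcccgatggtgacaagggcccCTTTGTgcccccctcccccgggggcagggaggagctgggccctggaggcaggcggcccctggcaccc
Pmp22, chr11:63128732-63128981, plus strand: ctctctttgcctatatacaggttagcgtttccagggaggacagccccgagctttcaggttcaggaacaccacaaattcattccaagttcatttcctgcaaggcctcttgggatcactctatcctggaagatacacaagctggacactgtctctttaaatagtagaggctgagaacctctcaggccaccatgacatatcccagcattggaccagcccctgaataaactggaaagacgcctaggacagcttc

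The Mag window held ACAAAG on the opposite strand, read here as CTTTGT, at 67 to 62 bases before the start, and the Mal and Pmp22 windows shown held none of the 3 motifs. Counting every listed start, 15 windows of the 6 genes were searched, and 4 of them, belonging to Mag, Egr2 and Cnp, held a motif. ACAAAG was in 3 of these windows, GTGGGCG in 1 and ACAATG in 0. Across 32851 windows of the same length in the table, 16.5% held ACAAAG, 10.7% ACAATG, 7.02% GTGGGCG and 31.2% any of them. Windows of 1 gene can overlap, and 2 of the Mag windows hold the same match. A match of letters is a description of the sequence and not a measured binding site.

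The effect of the knock-in after saline was asked first. None of the 8 genes passed the test between KI saline and WT saline: edgeR called 0 of 8 at a Benjamini-Hochberg adjusted p under 0.05, against a background of 4.34% of 15507 genes called in this comparison (2.15% rose and 2.19% fell). Among the 8 the smallest edgeR p was 0.224 before adjustment and 0.471 after it, both for Cnp. The median log2 difference of the 8 genes was -0.07. Mag had 0.15 ± 0.16 (log2 difference ± SE), Sox10 0.06 ± 0.12, and the other 6 lay between -0.16 and -0.01. Without WT saline replicate 4, the library with Mobp, the Mal difference was 0.02 (-0.07 with it) and that of Cnp -0.04 (-0.11 with it). With any 1 library left out, that one among them, Mbp stayed between -0.23 and -0.07 and Mag between 0.07 and 0.24. The number of all genes called here was itself unstable, at 673 reported, 284 to 905 when 1 library was left out, 132 without the 2 libraries with most muscle and 1487 by DESeq2. The 95% confidence intervals bound what could have been missed. For Pmp22 the interval of the fold ran from 0.882 to 1.12, and for Egr2, the least precise, it ran from 0.715 to 1.25. In bulk tissue, fewer cells of a type and less RNA per cell cannot be told apart.

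With CFA in both genotypes, 0 of the 8 genes passed the test between KI CFA and WT CFA, beside 2.84% of all genes tested (1.09% rose and 1.75% fell). Differences were positive for 6 of 8, with a median of 0.12 on the log2 scale. The largest was that of Egr2, whose means were 12.6 ± 2.65 CPM in KI CFA and 10.4 ± 0.859 CPM in WT CFA (SD, n = 4 each), a log2 difference of 0.27 ± 0.19 (edgeR adjusted p = 0.656). Mbp followed with 0.18 ± 0.14, Mag with 0.17 ± 0.16 and Prx with 0.15 ± 0.15. Without KI CFA replicate 1, the highest library for Mbp, the Mbp difference was 0.04, and without WT CFA replicate 1, the library with the contrary tag, it was 0.25. Without WT CFA replicate 3 the Mag difference was 0.04 and that of Prx 0.02. Mag was at 0.29 without WT CFA replicate 1, and Prx at 0.22 without WT CFA replicate 4. Without both WT CFA replicate 3 and KI CFA replicate 1, the libraries lowest and highest in the 8 genes, Mbp, Mag and Prx were all negative. They were at -0.06 for Mbp, -0.07 for Mag and -0.07 for Prx, and Sox10 was at -0.31 (-0.11 with both libraries). Over both injections, the knock-in effect on the 8 genes had a median of 0.02, with 0 of 8 called beside 8.96% of all genes (4.33% rose and 4.64% fell). The largest estimate was Mag at 0.16 ± 0.11 (edgeR adjusted p = 0.393), and the fold interval of Mag ended at 1.31, the highest end among the 8 genes.

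The response to the inflamed joint was compared within each genotype. In WT mice CFA gave 0 calls among the 8 genes, and 0% of all genes tested were called. Before adjustment, 6.96% of all genes and 0 of the 8 had an edgeR p under 0.05, and DESeq2 called 24 genes in all. The differences of 7 of the 8 genes were negative, with a median of -0.12. Mbp averaged 835 ± 139.9 CPM in WT CFA and 1017 ± 152 CPM in WT saline, a log2 difference of -0.28 ± 0.14. The 95% interval of this difference ran from -0.57 to 0.01, with an edgeR adjusted p of 0.703 and an unadjusted one of 0.0539. Prx had -0.22 ± 0.15 and Egr2 -0.17 ± 0.19. Without WT CFA replicate 3, the lowest library for Mbp, the Mbp difference was -0.17, that of Prx -0.08 and that of Mag -0.00. With any 1 library left out, WT saline replicate 4 among them, the Mbp difference stayed between -0.35 and -0.17. Mal had -0.10 and Cnp -0.10, and without WT saline replicate 4 they had -0.01 and -0.03. A neuron marker score as a covariate, added after the data were seen, moved Mbp to -0.11 and Prx to -0.04. In that fit Pmp22, Mag, Mal and Cnp were positive, at 0.01, 0.05, 0.06 and 0.02.

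KI mice gave 0 calls among the 8 genes after CFA, and 0% among all genes, with 5.68% of all genes and 0 of the 8 below an unadjusted edgeR p of 0.05, while DESeq2 called 15 genes. The median of the 8 was 0.01. Pmp22 and Cnp differed by less than 0.01 on the log2 scale, with SEs of 0.08 and 0.09. With the neuron marker score as a covariate, estimates in KI moved up, away from 0 for most genes. Pmp22 was then at 0.13, Cnp at 0.14, Mal at 0.18, Mbp at 0.24 and Prx at 0.25. In that fit Mag was at 0.10, Sox10 at 0.00 and Egr2 at 0.25, and 0 of the 8 genes were called. Egr2 had 0.18 ± 0.19, with 2 of 4 KI CFA libraries above all 4 KI saline libraries. Without KI saline replicate 1, its lowest library in that group, Egr2 was at 0.04, and without KI CFA replicate 4 at 0.27. Averaged over genotypes, CFA gave 0 of 8 calls beside 0.0258% of all genes, and a median of -0.05. An unadjusted edgeR p under 0.05 was met by 0 of the 8 and by 6.57% of all genes. The interval reaching furthest below 0 was that of Mag, to -0.36. The comparisons within and across genotypes share libraries, so their values stand side by side and are not independent.

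A test of whether the CFA response differed by genotype called 0 of the 8 genes and 0% of all genes, with 6.29% of all genes and 0 of the 8 below an unadjusted edgeR p of 0.05, and 0 genes by DESeq2. The interaction was 0.35 ± 0.27 for Egr2, 0.33 ± 0.19 for Mbp and 0.26 ± 0.21 for Prx, where positive means a higher CFA response in KI. Sox10 alone had a negative value, -0.17 ± 0.16. The smallest edgeR adjusted p among the 8 was 0.718. Single libraries moved these estimates both ways. Egr2 was at 0.21 without KI saline replicate 1, Mbp at 0.19 without KI CFA replicate 1 and Prx at 0.12 without WT CFA replicate 3. Without WT saline replicate 1 Egr2 was at 0.52 and Mbp at 0.41, and without KI saline replicate 4 Prx was at 0.34. Without KI CFA replicate 1 and WT CFA replicate 3 together, Mbp was at 0.09 and Prx at 0.03, while Sox10 moved further down, to -0.38. The widest interval was that of Egr2, from -0.22 to 0.92, which includes a 1.89-fold difference in response.

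**Figure D2:**
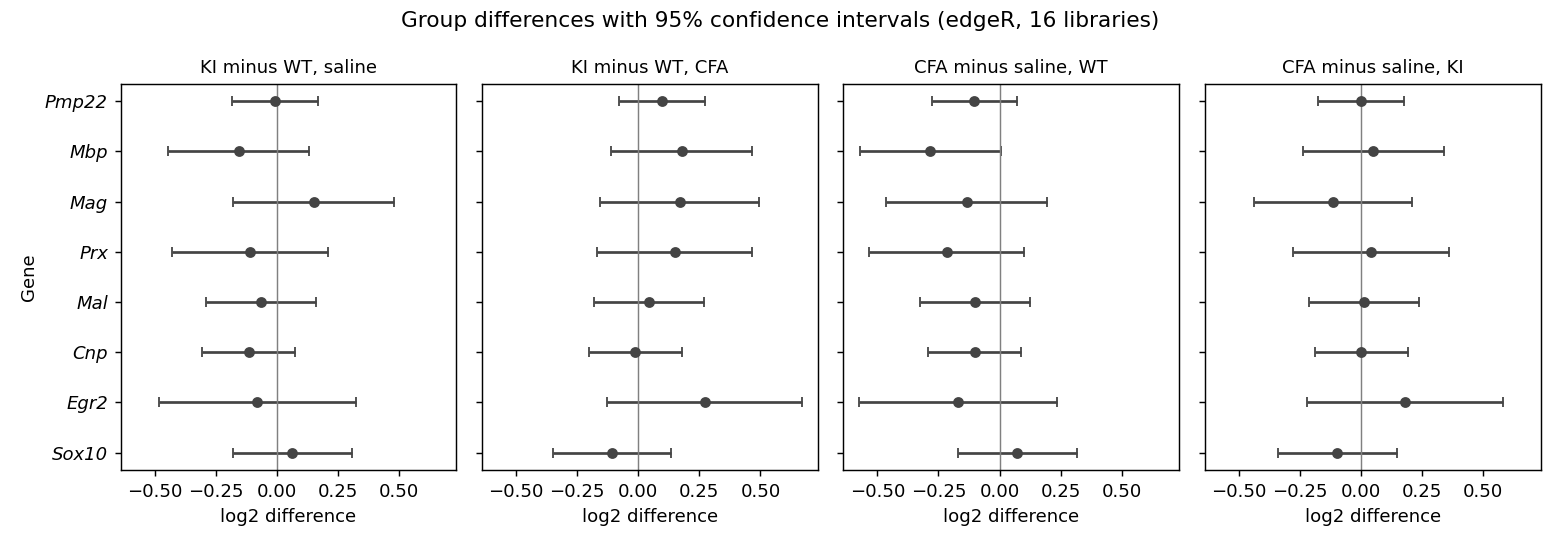
Log2 differences (x axis) of each gene (y axis) in 4 comparisons, KI minus WT after saline and after CFA and CFA minus saline in WT and KI, where points are edgeR estimates from 16 libraries and bars the 95% confidence intervals. Every interval includes 0, the nearest to excluding it being Mbp for CFA minus saline in WT, with -0.57 to 0.01.

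The tags in the source names add a numbering whose meaning the labels do not give, with numbers of 5 or lower and of 6 or higher present in every group. Differences of the 8 genes were set out within low and high numbers. Among libraries numbered 5 or lower, CFA minus saline was positive for 7 of 8 genes in WT (median 0.09) and for 8 of 8 in KI (median 0.23). Among those numbered 6 or higher it was positive for 0 of 8 in WT (median -0.36) and for 0 of 8 in KI (median -0.13). KI minus WT after saline was positive for 7 of 8 genes at low numbers (median 0.11) and for 1 of 8 at high numbers (median -0.15). KI minus WT after CFA was positive for 8 of 8 at low numbers (median 0.28) and for 5 of 8 at high numbers (median 0.12). The sign of the median was thus opposite between low and high numbers in 3 of these 4 comparisons and the same in KI minus WT after CFA. Not every gene followed the median. Mbp was negative at low and high numbers for CFA minus saline in WT (-0.005 and -0.57) and KI minus WT after saline (-0.01 and -0.21). Mag was positive at both for KI minus WT after saline (0.34 and 0.01). KI CFA has 1 library with a low number, replicate 1, the highest of all in the 8 genes. Each cell of this split holds 1 to 3 libraries, the 8 genes move together, and no test was made. With the split as a covariate, 0 of the 8 genes were called in each comparison.

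Other genes of the same cells were read from lists of related function. Of 17 other proteins of the myelin sheath, 2 fell in KI saline against WT saline and 1 in KI CFA against WT CFA, and over both injections 4 fell and 0 rose. Of all genes tested, 2.19% fell after saline, 1.75% fell after CFA, and 4.64% fell and 4.33% rose over both. Gpr37, an orphan receptor expressed in myelinating glia, fell in both. It had 11.7, 10.8, 11.2 and 12.5 CPM in KI CFA, against 14.8, 15.2, 16.4 and 15.7 CPM in WT CFA. After saline it had 12.3, 11.8, 11.7 and 11.2 CPM in KI, against 14.6, 14.8, 16.1 and 15.0 CPM in WT. All 8 KI libraries were below all 8 WT libraries, though how many of all genes part in this way was not counted. The fitted differences were -0.43 ± 0.07 with CFA (edgeR adjusted p = 0.00201) and -0.36 ± 0.07 with saline (edgeR adjusted p = 0.00851). The saline call ended without the 2 libraries with most muscle (edgeR adjusted p = 0.0862, difference -0.36).

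Cd9, a tetraspanin of many cell types including Schwann cells, was at 622 ± 38.1 CPM in KI saline and 844 ± 159 CPM in WT saline (SD, n = 4 each), a fall of 0.44 ± 0.10 on the log2 scale (edgeR adjusted p = 0.0185). That call ended without KI saline replicate 4 (edgeR adjusted p = 0.0649), without the 2 libraries with most muscle (0.205) and with only the groups compared in the fit (0.0818). WT saline replicate 4, the library with Mobp, was the highest for Cd9 at 1076 CPM, and without it the log2 difference was -0.30. Sirt2, a deacetylase, and Tspan2, a tetraspanin, fell by 0.12 each over both injections, and the calls ended when any of 11 single libraries was left out for Sirt2 and any of 9 for Tspan2, and both also without the 2 libraries with most muscle (edgeR adjusted p = 0.15 and 0.0787). Pmp2, which encodes a lipid-binding protein of peripheral myelin, had 6.97, 7.71, 7.51 and 9.44 CPM in KI CFA, against 5.31, 4.04, 2.17 and 4.93 CPM in WT CFA. These groups did not overlap, but the share of all genes without overlap was not counted. The log2 difference of 0.94 ± 0.30 was the largest of the list in that comparison but was not called (edgeR adjusted p = 0.131). After saline Pmp2 had 0.24 ± 0.30. Cldn19, Gjb1 and Drp2, further genes of the peripheral sheath, were not called in any comparison.

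Among 12 tested transcription factors of the Schwann lineage, Pou3f2 rose after saline, with 13.5, 13.8, 14.7 and 13.3 CPM in KI, against 10.4, 10.2, 10.2 and 10.7 CPM in WT (log2 difference 0.41 ± 0.07, edgeR adjusted p = 0.00472). The groups did not overlap, a trait whose share over all genes was not counted. Pou3f2 also encodes a factor of neurons. It was the only call among the 12 after saline, where 2.15% of all genes rose. With CFA 0 of the 12 were called, beside 2.84% of all genes. Of 14 signals between axon and Schwann cell and their receptors, Itga6, a laminin receptor subunit, rose by 0.37 ± 0.09 after saline (edgeR adjusted p = 0.0381), a call lost when any of 6 single saline libraries was left out, without the 2 libraries with most muscle (edgeR adjusted p = 0.0967), and with low or high source number as a covariate (0.0529), a replicate block (0.0642) or only the groups compared in the fit (0.0566). Itga6 was the only call among the 14 after saline, and with CFA 0 of the 14 were called. Erbb3, the Schwann cell receptor for neuregulin, was at 76.7 ± 7.89 CPM in KI saline and 76.3 ± 5.70 in WT saline and was not called. The 18 genes of myelin lipid synthesis gave 0 calls in both genotype comparisons, where 4.34% and 2.84% of all genes were called, shares that amount to less than 1 gene of 18.

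The 15 tested genes of non-myelinating and repair Schwann cells held the largest called differences of these lists, and several of them are also neuronal genes. After saline 1 rose and 2 fell in KI, and after CFA 1 rose and 3 fell. Of all genes tested, 2.15% rose and 2.19% fell after saline, and 1.09% rose and 1.75% fell after CFA. Gap43, a growth cone protein, and Ngfr, the low-affinity neurotrophin receptor, fell in KI with either injection, Gap43 by 0.69 ± 0.08 on the log2 scale after saline (edgeR adjusted p = 8.43e-05) and by 0.79 ± 0.08 after CFA (1.21e-05). Ngfr was at 705 ± 36.1 CPM in KI saline and 1062 ± 64.7 CPM in WT saline, and at 668 ± 30.2 CPM in KI CFA and 1125 ± 65.3 CPM in WT CFA. Shh, a secreted signal, rose by 0.52 ± 0.12 after saline (edgeR adjusted p = 0.0229) and by 0.51 after CFA (0.0232), but the saline call ended without KI saline replicate 2 or 4 or WT saline replicate 3 and without the 2 libraries with most muscle, and the CFA call without KI CFA replicate 2 or 3 or WT CFA replicate 1, 2 or 4 (edgeR adjusted p from 0.0555 to 0.103). Jun, a transcription factor of repair Schwann cells that injured neurons also make, fell by 0.37 after CFA (edgeR adjusted p = 0.0384), a call lost without any of 3 single KI CFA libraries or 3 single WT CFA libraries, or without KI saline replicate 3, and with the skeletal muscle score (0.0841) or the endothelial marker score (0.08) as a covariate. In the CFA comparisons and the interaction, these 5 lists gave 0 calls, beside at most 0.0258% of all genes, so these counts say nothing particular about the lists.

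**Figure D3:**
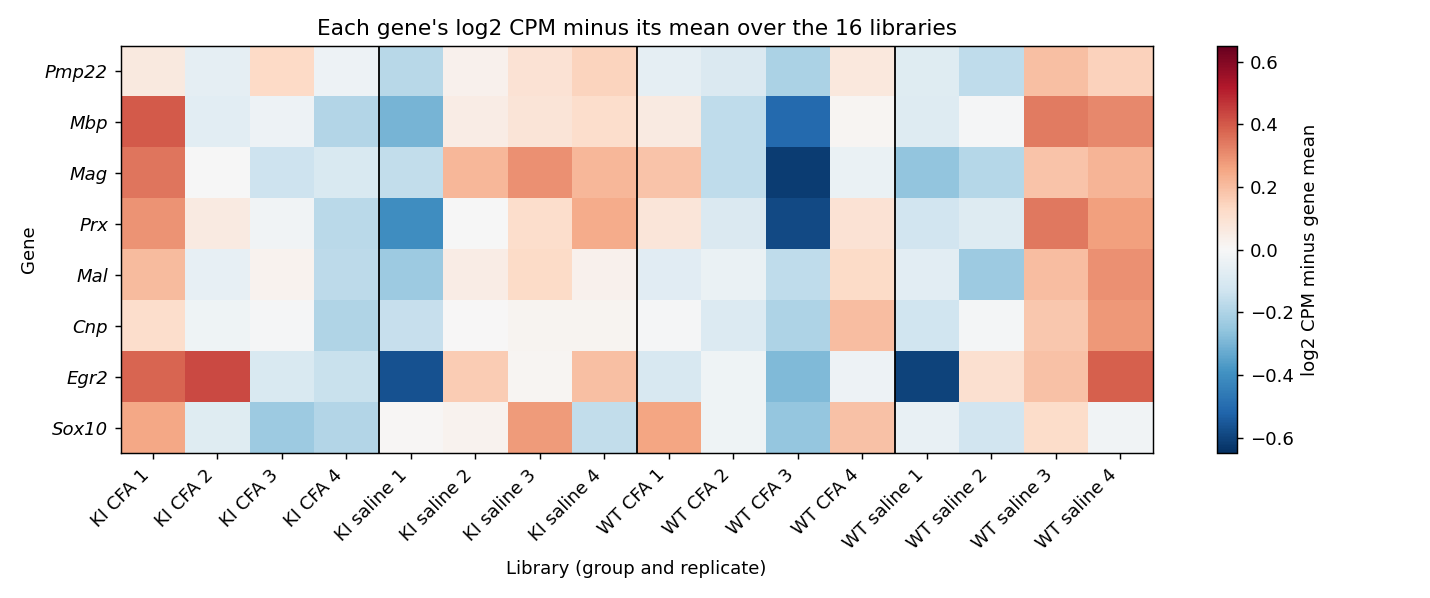
Log2 CPM of each gene (rows) minus its mean over the 16 libraries (columns, ordered as KI CFA, KI saline, WT CFA and WT saline, with lines between groups), where red is above and blue below the mean. Whole columns share a colour, as in WT CFA replicate 3, below the mean in 8 of 8 genes, and KI CFA replicate 1, above it in 8 of 8.

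Libraries of the same group varied widely in most of the 8 genes. Within groups the SD of log2 CPM was 0.13 for Pmp22, 0.15 for Cnp, 0.18 for Mal, 0.19 for Sox10, 0.23 for Mbp, 0.26 for Mag and Prx and 0.32 for Egr2. The median over the 9692 genes that averaged 10 CPM or more was 0.11. For Mbp, Mag, Prx and Egr2, 96%, 97.2%, 97.4% and 98.9% of those genes had a smaller within-group SD. The libraries were ordered by the mean deviation of the 8 genes from their averages. WT CFA replicate 3 was lowest at -0.35 and KI saline replicate 1 next at -0.25. KI CFA replicate 1 was highest at 0.26, followed by WT saline replicates 4 and 3 at 0.24 and 0.22. KI saline replicates 1 and 4, the 2 with most muscle transcripts, lay at -0.25 and 0.10, on both sides of the average.

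After each group's mean was taken off, the 8 genes correlated with one another over the 16 libraries. The 28 Pearson correlations ran from 0.29 to 0.96 with a median of 0.763. With permutation of libraries within groups and adjustment over the 28 pairs, 25 passed 0.05 by Pearson's r and 24 by Spearman's rho. Mbp and Prx had r = 0.955 (permutation p = 5e-05, adjusted 0.0014) and rho = 0.941 (permutation p = 7e-05, adjusted 0.00196), and r = 0.962 without the 2 libraries farthest from the median of Mbp. Mbp and Mag had r = 0.958 and rho = 0.971 (permutation p = 0.00023 for each, adjusted 0.00196 and 0.00322), with r = 0.944 without those 2 libraries. Mbp, Prx and Mag thus ordered the libraries almost alike.

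Sox10 had the lowest correlations with Egr2 and Pmp22. Egr2 and Sox10 had r = 0.291 (permutation p = 0.267) and rho = 0.271 (permutation p = 0.335), and r = 0.380 without 2 libraries. Pmp22 and Sox10 had r = 0.374 (permutation p = 0.149, adjusted 0.155) and rho = 0.415 (permutation p = 0.117, adjusted 0.126). Neither passed. Mbp and Sox10 had r = 0.723 (permutation p = 0.00973, adjusted 0.0130) and rho = 0.712 (permutation p = 0.00769, adjusted 0.0131), and r fell to 0.525 without the 2 farthest libraries. Egr2 and Prx had r = 0.735 (permutation p = 0.00107, adjusted 0.00303) and rho = 0.662 (permutation p = 0.0102, adjusted 0.0151). The points of each pair share their library and its depth.

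**Figure D4:**
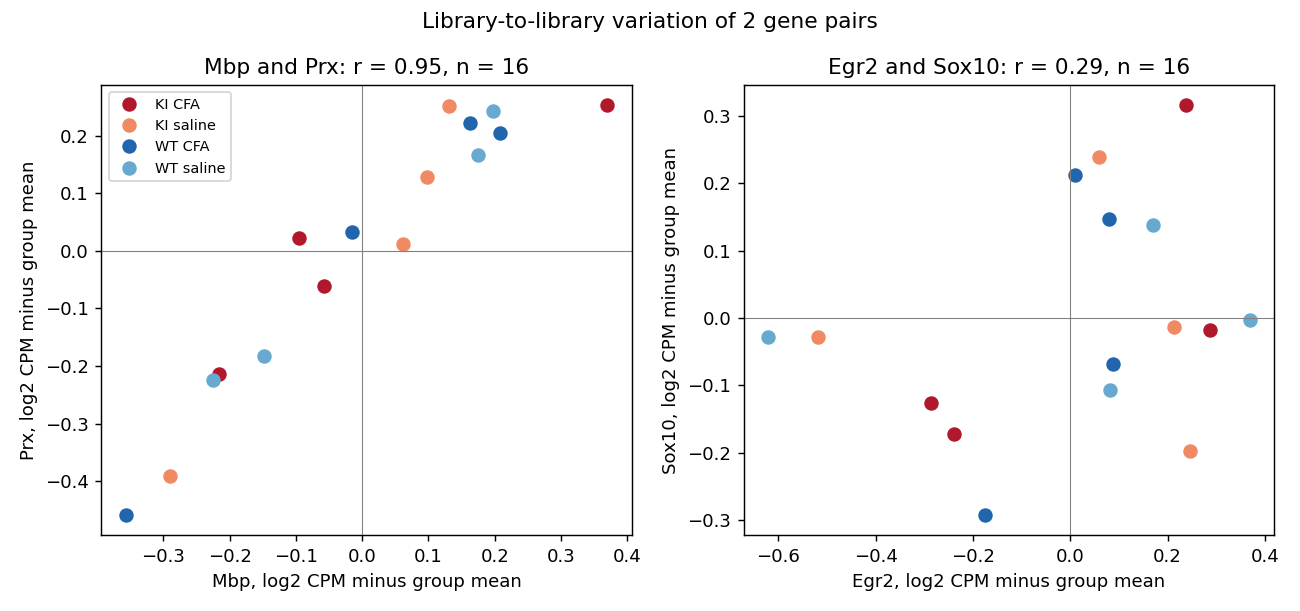
Log2 CPM minus the group mean in 16 libraries for Mbp (x axis) and Prx (y axis) on the left and for Egr2 (x axis) and Sox10 (y axis) on the right, coloured by group. The left points follow a line with r = 0.955, and the right points scatter with r = 0.291.

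Among the 9684 other genes averaging 10 CPM or more, those whose library-to-library pattern was most like the mean of the 8 were sought, again with group means taken off and described without a test. Plekha4 had r = 0.966, Drp2, a partner of periaxin in the sheath, 0.962, Sema3b 0.960, Cryab 0.941 and Daam2 0.939. The median over all candidates was -0.05. By gene, Drp2 was the most alike for Mbp (0.981), Mag (0.969) and Prx (0.954). Mal was closest to Sparc (0.956) and Cnp to Ndrg1 (0.945), with Pecam1, a marker of endothelial cells, following at 0.939. Egr2 had Necap2 at 0.908 and Sox10 had Shroom2 at 0.935.

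Markers of other cells moved with the 8 genes too. All 7 endothelial markers had an r over 0.5 with the mean of the 8, with a median of 0.702, compared with 12 of 17 and a median of 0.721 for the other sheath proteins. Fibroblast and perineurial markers had a median of 0.588 and satellite glia markers 0.489. Neuron markers had a median of -0.239 and a range from -0.711 to 0.257, and skeletal muscle markers a median of -0.133. The summed endothelial markers ran from 93.8 to 121 CPM in KI CFA, from 101 to 124 in KI saline, from 80.2 to 125 in WT CFA and from 92.3 to 132 in WT saline. Summed neuron markers ran from 23175 to 27199 CPM in KI CFA, from 22596 to 24343 in KI saline, from 23937 to 26272 in WT CFA and from 22382 to 24783 in WT saline. The part of cell makeup in the shared variation was not tested.

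Within related lists the likeness was uneven. Of the sheath proteins, Cadm4 reached 0.931 and Cldn19 0.929. Fa2h, the enzyme that hydroxylates the fatty acids of myelin lipids, reached 0.900, while the median of the 18 lipid genes was 0.121. Dhh, the signal from Schwann cells to the nerve sheath, had 0.822 and Yap1 0.801. The repair list had a median of 0.0856.

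**Figure D5:**
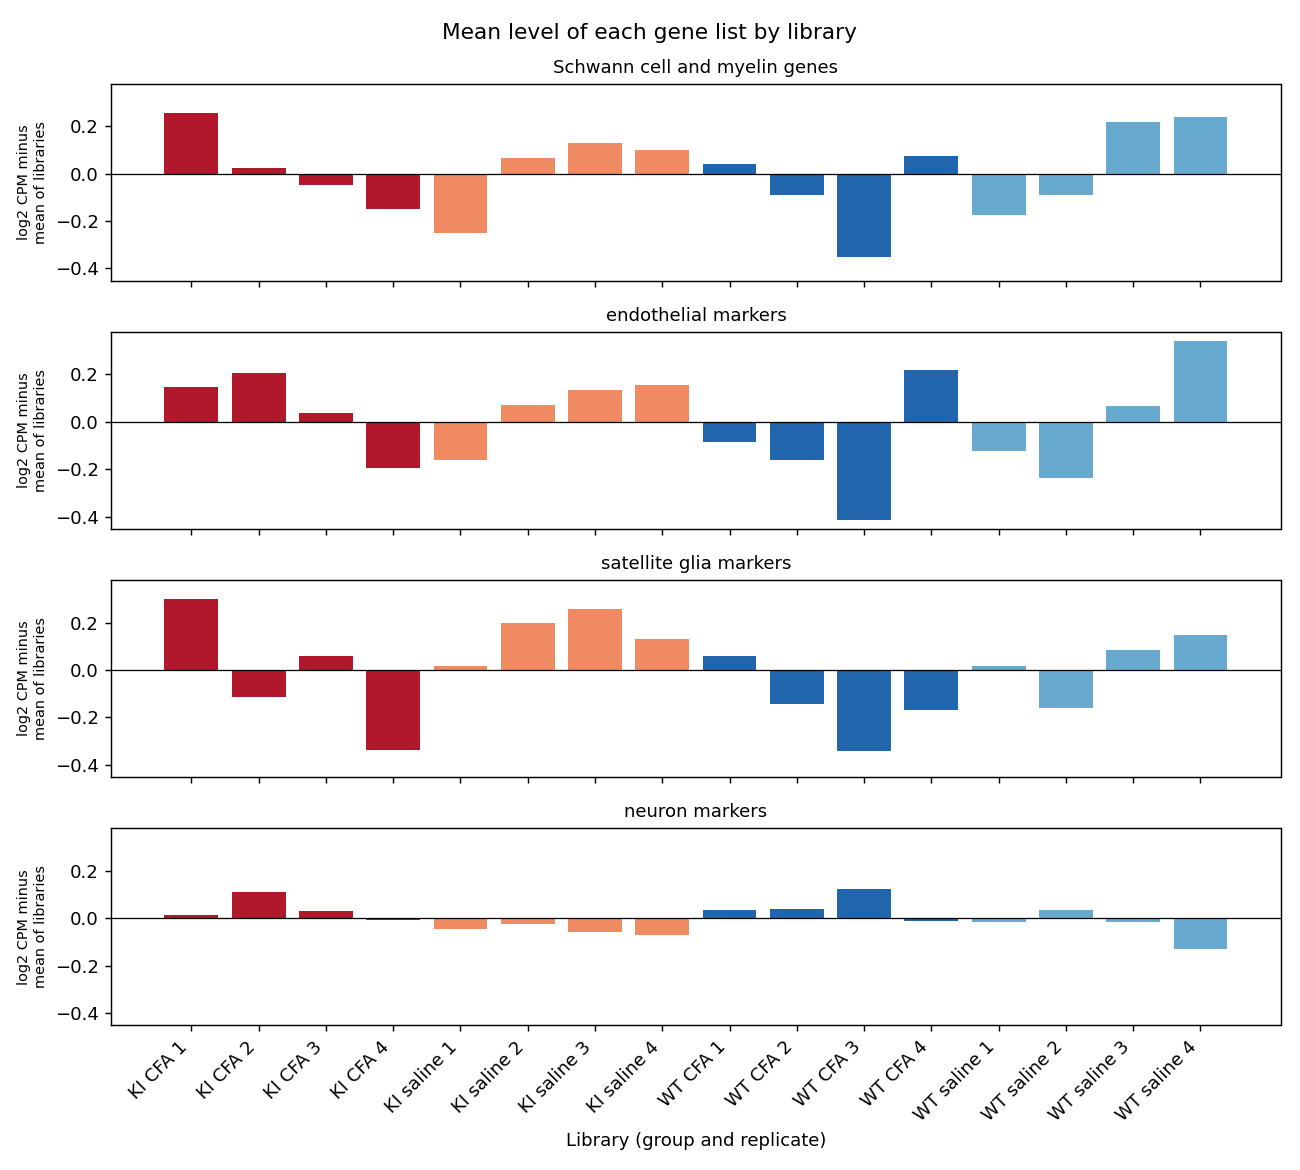
Mean log2 CPM of each list minus its mean over the 16 libraries (y axis), by library (x axis), for the 8 Schwann cell and myelin genes, endothelial markers, satellite glia markers and neuron markers, with bars coloured by group. WT CFA replicate 3 is the lowest library for the 8 genes, at -0.35, and is low for endothelial and satellite glia markers as well.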

How the data were processed

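RNA sequencing libraries were made, per the labels' protocols, from pooled lumbar dorsal root ganglia and read as single ends. The submitters' processing notes name TopHat2 2.1.1, HTSeq 0.6.1p1, Bowtie2 2.3.5.1 and SAMtools 1.5, with build mm10. The strand setting and annotation of the counting are not given in the sources used here, so reads of overlapping or antisense genes cannot be separated. The deposited values are the authors' raw read counts per gene, whole numbers with no normalization. Entries with no Entrez identifier (28, 0.192% of counts) name genes by symbol and were kept.

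Groups came from the sample titles. Counts of 16 libraries were fitted with edgeR 4.0.16 in R 4.3.3 by its quasi-likelihood method, giving each group its own mean, with TMM factors and filterByExpr (15507 genes, common biological coefficient of variation 11.8%), and p-values were adjusted by Benjamini-Hochberg over all genes tested. The 7 contrasts were the genotype effect under each injection and averaged, the CFA effect in each genotype and averaged, and the interaction. SEs were taken from the log2 difference and its F statistic. CPM values are counts scaled by edgeR to the TMM-adjusted library total. For log2 CPM, 2 was the prior count. The fit was tested on simulated data in which every gene was given the same spread between libraries. That test therefore does not cover genes that varied as widely as Mbp, Mag, Prx and Egr2. Depth limits the precision of low genes, and intervals reflect the spread between pools, with PCR duplicates not recognizable in counts.

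Correlations used log2 CPM with each group's mean taken off, with p-values by permutation of libraries within groups. Exon lengths came from GENCODE M21 and promoter sequences from RefSeq (GRCm38.p6). Alternatives were limma-voom with quality weights (limma 3.58.1), DESeq2 1.42.0, other scalings, filters, thresholds and covariates, a replicate block, and leaving out libraries. Same-numbered replicates of different groups did not on average deviate together. Their mean correlations were 0.0076, -0.027, -0.052 and -0.070 for numbers 1 to 4. The text names all 8 genes, up to 4 genes per related list with called ones first, and the genes most alike in pattern. The 8 genes and all lists were chosen with earlier results of these data known. Erbb3, Ntrk3 and the sheath genes given as not called were named after their values had been seen. Some results of the rule for named genes are not reported here.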

Additional observations from a re-analysis of the deposited data

Results flagged for a closer look

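Cnp in KI saline replicate 1 lay apart from the other 3 libraries of its group. It was at 139.281 CPM, and the other 3 lay between 154.504 and 156.652 CPM, so the gap to the nearest was 0.876 of the group's range, past Dixon's critical value at the 95% level. The narrow spacing of the other 3 makes this a large share of a small range, and the library was also among the 3 lowest for 6 of the 8 genes. In that library 11 skeletal muscle markers summed to 925 CPM. KI saline replicate 4, with 876 CPM of the same markers, had 156.7 CPM of Cnp. In all, 32 sets of 1 gene in 1 group were examined and 1 passed; chance alone passes about 1 in 20. The part of muscle tissue in this value was not tested.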

How the results depend on the processing

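The 56 differences of the 8 genes were recomputed under 33 alternatives, giving 1824 values, of which 1781 moved by less than the SE of the difference and 42 by more. None of the 56 was called as reported, and 155 values had a sign unlike the reported one. The largest size reached was 0.52 on the log2 scale, and the largest shift 0.25. The count of called genes among the 8 stayed at 0 in all but 1 case, including each fit without 1 library. With the endothelial marker score as a covariate, an alternative added after the data were seen, 1 of the 8 genes was called for KI against WT over both injections, Cnp with a log2 difference of -0.12 (edgeR adjusted p = 0.0305). No pairing by replicate number was seen, as 3 of 16 libraries correlated best with their own number, but the check is weak. Single correlations between libraries of replicate number 4 ran from -0.449 to 0.515. Whether libraries that share a source number are paired was not checked. With a replicate block 0 of the 8 genes were called in each comparison.

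Over all genes, KI against WT after saline called 284 to 905 genes without 1 library each, and 132 without the 2 libraries with most muscle, beside 673 reported and 1487 by DESeq2. After CFA the range was 241 to 652 genes, beside 441 reported and 663 by DESeq2. CFA against saline in KI went up to 53 genes, without KI saline replicate 2, beside 0 reported. Over both genotypes CFA gave 0 to 39 genes without 1 library each and 57 by DESeq2, beside 4 reported and 1 with a replicate block. Egr2 and Mag have the lowest counts, and for Egr2 after saline the interval of the KI to WT fold ran from 0.715 to 1.25.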
